A study of Mus musculus with 6 samples.

Results

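The 10 genes described here, Chodl, Car3, Pvalb, Calb1, Calb2, Runx3, Shox2, Etv1, Cadps2 and Whrn, are known from large-diameter sensory neurons and were listed as low in 1 library of sorted embryonic dorsal root ganglion cells. They were chosen, out of 41388 genes, by comparing reads per library total in the library made from 1 embryo with the same quantity in the other 5 libraries. That comparison of the members is therefore a description, and no test of it is given. The listed pattern held for 8 of the 10 genes: Etv1 lay within the range of the other libraries and Whrn lay above it.

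RNA was sequenced from cells sorted for EGFP out of the dorsal root ganglia, which hold the bodies of sensory neurons, of C57BL/6 mouse embryos at 18.5 days post coitum. Each of the 3 female libraries (A, B, C) and male A was a pool of 2 embryos and 40 ganglia, and male B was a pool of 3 embryos and 60 ganglia. The sixth library, male C, came from the 20 ganglia of 1 embryo. All 6 libraries are labelled RetFloxedEGFP with NaV1.8Cre, a pairing in which EGFP marks those cells of the Ret population that have Cre expressed from the Nav1.8 (Scn10a) locus. The ganglia came from lower thoracic to upper sacral levels in each case. For the 5 pools the genotype field names the Cre allele, Scn10a<tm2(cre)Jnw>, whereas for male C that field reads RetFloxedEGFP alone, and the Cre is named in its other labels. The labels do not say how many copies of the altered Ret allele an embryo carried, and no unsorted or EGFP-negative cells were analysed here. Male C also has a later record number than the other libraries. A single embryo, fewer ganglia, a later record and a genotype field without the Cre allele belong to the same library and cannot be told apart.

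Large-diameter neurons of the dorsal root ganglion carry touch and muscle position along thick myelinated axons, and are distinguished from nociceptors by neurofilament, by the neurotrophin receptors TrkB and TrkC, and by fast-firing channels. Proprioceptors, which innervate muscle spindles and tendon organs, require the transcription factor Runx3 and express parvalbumin, and their central connections depend on Etv1. Shox2 acts in the development of touch neurons that carry TrkB, and the calcium-binding proteins calbindin and calretinin mark subsets of large neurons.

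Promoters are shown for Chodl, which had the lowest ratio to the pools, and for Runx3 and Pvalb, lower members with a match to a motif of a member transcription factor family. That of Etv1, which also had a match but was not low, is not printed. RefSeq (GRCm38.p6) gave entries for 7 of the 10 members, and the 250 bases before the annotated start are printed 5′ to 3′ on the gene's own strand. In capitals stand matches to the Runt motif TGTGGT, or its complement ACCACA, and to the ETS motif CCGGAAG, each searched on both strands.
Chodl, chr16:78930698-78930947, plus strand, no match: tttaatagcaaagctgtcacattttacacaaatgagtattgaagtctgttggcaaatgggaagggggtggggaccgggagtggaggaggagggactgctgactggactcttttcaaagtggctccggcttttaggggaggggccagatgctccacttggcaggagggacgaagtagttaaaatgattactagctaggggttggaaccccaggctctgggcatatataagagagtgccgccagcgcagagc
Runx3, chr4:135120395-135120644, plus strand, Runt in capitals: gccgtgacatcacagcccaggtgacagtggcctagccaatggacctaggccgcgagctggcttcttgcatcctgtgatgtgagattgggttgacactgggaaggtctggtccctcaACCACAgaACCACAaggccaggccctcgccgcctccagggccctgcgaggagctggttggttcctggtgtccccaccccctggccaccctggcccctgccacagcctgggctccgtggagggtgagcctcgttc
Pvalb, chr15:78206401-78206650, minus strand, ETS in capitals: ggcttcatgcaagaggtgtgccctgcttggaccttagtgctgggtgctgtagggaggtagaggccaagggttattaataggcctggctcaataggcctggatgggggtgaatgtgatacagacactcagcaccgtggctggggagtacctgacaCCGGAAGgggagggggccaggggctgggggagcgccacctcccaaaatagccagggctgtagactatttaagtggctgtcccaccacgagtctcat
The 7 members had 10 promoter entries, since some have more than 1 start. A Runt match stood in 2 of the 10 (of Runx3 and Etv1), against 14.0% of all 32851 promoters of this length. The ETS match stood in 1 of 10, against 6.91% of all promoters, and the homeodomain letters TAATTA in 0 of 10, against 4.84%. These matches describe letters in a window and are not binding sites, and the Chodl window held none of the 3 motifs. Car3, Calb1 and Calb2 had no entry.

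Total read counts lay between 15693013 and 24033601, with male C (15693013) and female A (15807666) almost equal in depth. Male C had the fewest genes with a read, 19526, against 21028 in female A. In a principal component analysis of 10377 genes the first component, with 49.7% of the variance, split the pools. Female C (-0.538) and male B (-0.559) lay opposite female A (0.483), female B (0.225) and male A (0.332), with male C between them (0.0565). The second component, with 27.6% of the variance, set male C (0.895) apart from the 5 pools (-0.282 to -0.0508). Sex-linked transcripts matched the label of each library. Levels are given as reads per 1000000 reads of the library total (CPM), or as CPM per kilobase of gene length (RPKM) where genes are compared with each other. In bulk RNA, fewer cells of a type and less RNA per cell cannot be told apart.

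Calcium-binding proteins came first among the members in role. Pvalb (ENSMUSG00000005716, chromosome 15, 78191114 to 78206400, build GRCm38.p2) encodes parvalbumin, a slow calcium buffer of proprioceptors. It stood at 11.8, 11.9 and 4.91 CPM in female A, B and C, at 9.70 and 7.64 CPM in male A and B, and at 0.828 CPM in male C. Male C was lower than every pool and stood at 9.01% of the pooled mean of 9.20 ± 2.97 CPM (SD, n = 5). The 13 reads behind it put the ratio of male C to the summed pools at 9.17%, with a 95% exact counting interval of 4.86 to 15.7%.

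Calb1 (ENSMUSG00000028222, chromosome 4, 15881264 to 15908064) encodes calbindin, another cytosolic calcium buffer. Its level was 18.6, 28.2 and 27.6 CPM in female A, B and C, 27.1 and 24.7 CPM in male A and B, and 4.46 CPM in male C. The pools lay close together and male C far under them, at 17.7% of their mean of 25.2 ± 3.94 CPM (SD, n = 5). With 70 reads in male C its counting interval was 13.5 to 22.0%. Calb2 (ENSMUSG00000003657, chromosome 8, 110142539 to 110168206), which encodes calretinin, had few reads in every library. It gave 2.15, 2.41 and 1.83 CPM in the females, 2.06 and 2.84 CPM in male A and B, and 1.59 CPM in male C. Male C was the lowest of the 6 libraries, but by little: its value was 87.2% of that in female C, the next lowest. Its counting interval, 44.5 to 106%, included 100%. The interval leaves out the spread between libraries and is not a test of Calb2.

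Among the transcription factors Runx3 (ENSMUSG00000070691, chromosome 4, 135120652 to 135177990) is the Runt-domain factor of proprioceptors. It had few reads in every library, at 0.443, 0.624 and 0.739 CPM in female A, B and C, 0.536 and 1.32 CPM in male A and B, and 0.0637 CPM in male C. The last value is 1 read, against 7 to 31 reads in the pools. The ratio to the summed pools was 8.45%, with a counting interval of 0.211 to 48.4%, which is wide because it rests on 1 read.

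Shox2 (ENSMUSG00000027833, chromosome 3, 66971727 to 66981771) is a homeobox factor. It varied little over the pools, at 5.38, 6.16 and 6.13 CPM in the females and 6.39 and 7.38 CPM in male A and B, and stood at 3.06 CPM in male C. Male C was the lowest library, at 48.6% of the pooled mean of 6.29 ± 0.722 CPM (SD, n = 5; 48 reads, counting interval 35.2 to 64.6%). Shox2 shares 153 exonic bases with Rsrc1 on the opposite strand. Whether counting used strand is not stated in the sources used here, so some of its reads may belong to Rsrc1. No other member overlaps the exons of another listed gene.

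Etv1 (ENSMUSG00000004151, chromosome 12, 38779380 to 38868215) is an ETS factor and, also per length, the most abundant member. Its level was 235.1, 218.6 and 182.0 CPM in female A, B and C, 212.5 and 165.9 CPM in male A and B, and 216.8 CPM in male C. Male C lay among the pools, above 3 of them, and stood at 106.9% of their mean of 202.8 ± 28.2 CPM (SD, n = 5). The label of a low gene does not apply to Etv1. In sum the 3 transcription factors came to 219.9 CPM in male C against 174.6 to 240.9 CPM in the pools, a sum made almost wholly of Etv1, whereas the 3 calcium-binding genes came to 6.88 CPM against 32.6 to 42.5 CPM.

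The other 4 members are a membrane lectin, an enzyme, a vesicle protein and a scaffold. Chodl (ENSMUSG00000022860, chromosome 16, 78930948 to 78951733) encodes chondrolectin, a C-type lectin of the cell membrane. It varied widely over the pools, with 15.8, 42.5 and 13.3 CPM in female A, B and C, with 33.3 and 12.1 CPM in male A and B, but was at 0.0637 CPM in male C. The pools held 250 to 1022 reads of Chodl and male C held 1. The ratio to the summed pools was 0.266%, with a counting interval of 0.00672 to 1.48%, the lowest of the 10 members.

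Car3 (ENSMUSG00000027559, chromosome 3, 14863538 to 14872351) encodes carbonic anhydrase 3, a cytosolic enzyme that hydrates carbon dioxide and is best known from muscle and fat. It gave 8.79, 17.3 and 7.61 CPM in female A, B and C, 27.5 and 7.43 CPM in male A and B, and 0.510 CPM in male C. Male C was again the lowest library, with 8 reads against 139 to 615, and a ratio of 3.65% (counting interval 1.57 to 7.20%). Chodl and Car3 had the widest spread of the members over the pools, 3.52-fold and 3.70-fold from the lowest to the highest, and both were highest in female B and male A. The remaining 8 members spread by between 1.29-fold (Whrn) and 2.97-fold (Runx3).

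Cadps2 (ENSMUSG00000017978, chromosome 6, 23262773 to 23839421) encodes a calcium-dependent activator of secretion that acts on dense-core vesicles. It stood at 2.59, 4.24 and 2.57 CPM in the females, 4.16 and 3.395 CPM in male A and B, and 1.15 CPM in male C. Male C was below each pool, at 33.8% of the pooled mean of 3.39 ± 0.811 CPM (SD, n = 5; 18 reads, counting interval 19.5 to 53.3%). Whrn (ENSMUSG00000039137, chromosome 4, 63414910 to 63495991) encodes whirlin, a PDZ scaffold known from the sensory hair bundles of the inner ear. Its level was 3.92, 4.87 and 5.00 CPM in female A, B and C, 3.89 and 4.71 CPM in male A and B, and 5.80 CPM in male C. Male C was the highest of the 6 libraries for Whrn, at 129.5% of the pooled mean of 4.48 ± 0.533 CPM (SD, n = 5), with a counting interval of 101 to 161%. The label of a low gene does not apply to Whrn either.

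**Figure D1:**
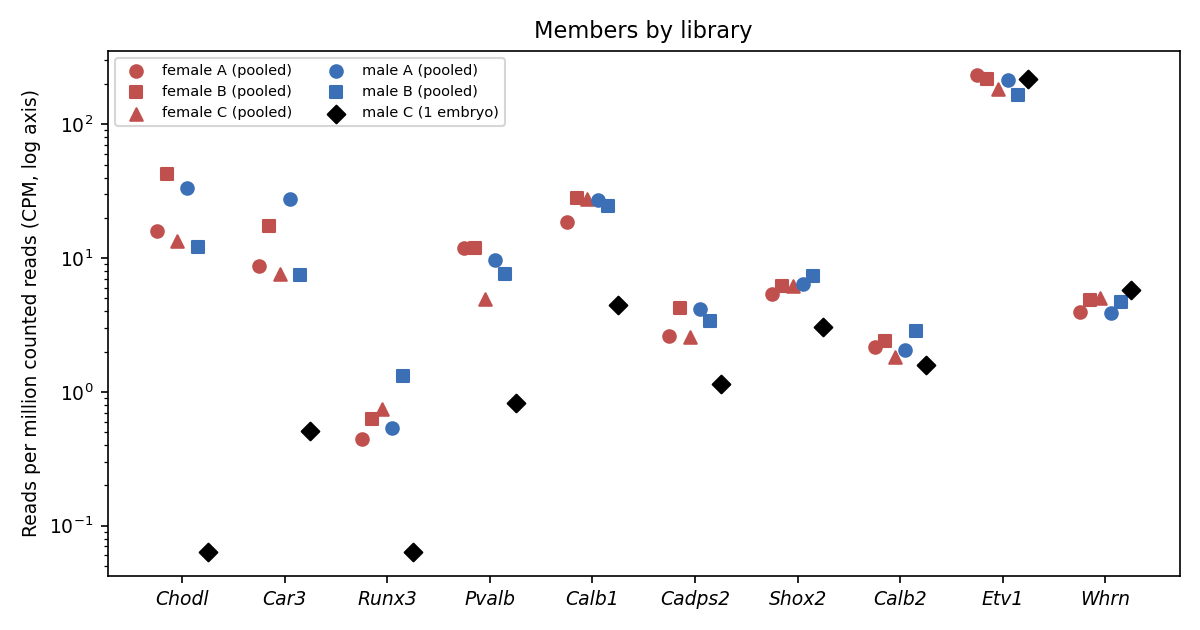
Level of each of the 10 members in each of the 6 libraries, in CPM on a log axis; points are single libraries and the black diamond is male C, the library of 1 embryo. The diamond lies under all 5 pools for 8 genes, among them for Etv1 and above them for Whrn.

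Per unit of gene length Etv1 led the members over the pools at 34.4 ± 4.79 RPKM, followed by Car3 at 9.11 ± 5.78, Pvalb at 8.83 ± 2.85, Chodl at 6.13 ± 3.58 and Calb1 at 5.21 ± 0.813 RPKM (SD, n = 5). The order among these last 4 is not fixed, since neighbours differ by less than their spread. Shox2 (1.93 ± 0.221 RPKM), Calb2 (1.58 ± 0.272) and Whrn (0.610 ± 0.0727) came next, and Cadps2 (0.354 ± 0.0847) and Runx3 (0.146 ± 0.0688 RPKM) were lowest. In male C the order was different: Etv1 stood at 36.8 RPKM, and the next were Calb2 at 1.11, Shox2 at 0.937 and Calb1 at 0.920 RPKM. Chodl, the fourth of the 10 in the pools, was at 0.0167 RPKM in male C, next to Runx3 at 0.0127 RPKM.

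**Figure D2:**
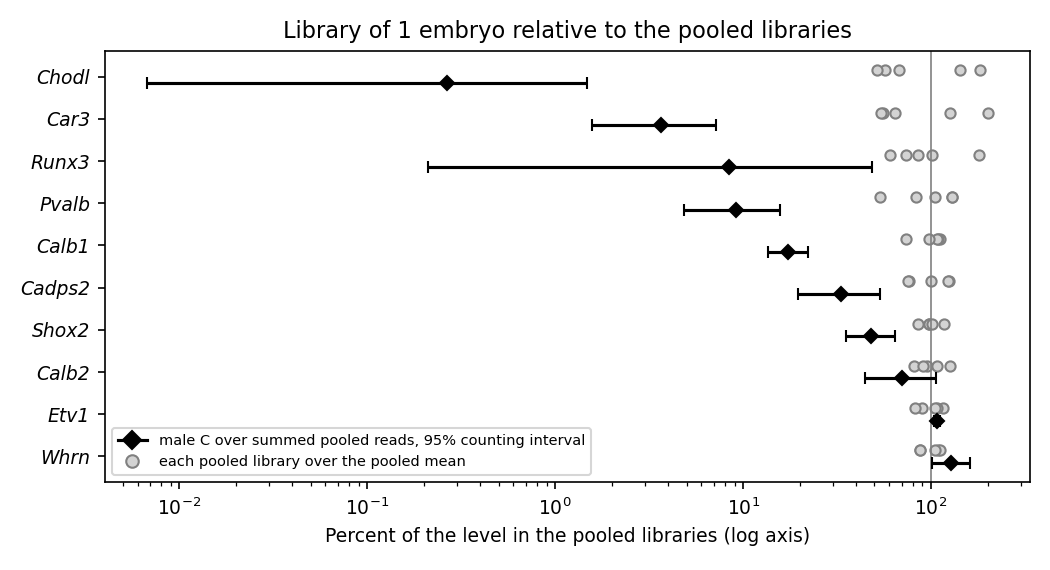
Level in male C as a percent of the summed pools for each member, on a log axis, with 95% exact counting intervals as bars (black), and each pool as a percent of the pooled mean (grey). Intervals of 7 members end below 100% and that of Calb2 includes 100%. Those of Etv1 (104 to 112%) and Whrn (101 to 161%) lie above 100%. The intervals leave out the spread between libraries, and for Etv1 male C lay within the pools.

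The 8 lower members came to 11.7 CPM in sum in male C, against a lowest of 64.7, a median of 66.8 and a highest of 113.4 CPM in the pools. Of the 10 members 8 lay below all 5 pools, where 29.3% of the 16439 genes tested did so. At 1 of 10 members (Whrn) male C lay above all pools, against 16.8% of genes. Under 50% of the pooled mean were 7 members, against 11.5% of genes, and under 25% were 5 (Chodl, Car3, Runx3, Pvalb and Calb1), against 4.34% of genes. Nothing is read from these shares, because the same contrast chose the members. At the edge of the choice stood Calb2, just below the lowest pool, and Etv1, within the range of the pools. Of the members 8 passed the filter on low counts on their level in male C alone, and Chodl and Runx3 passed through the pools only.

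How often a gene was low in male C depended on its level. Between 10 and 50 CPM in the pools, the range of Chodl, Car3 and Calb1, 30.7% of 4905 genes lay below all pools but only 0.245% lay under 25% of the pooled mean. Between 1 and 10 CPM, the range of Pvalb, Calb2, Shox2, Cadps2 and Whrn, these shares were 31.9% and 3.39% of 4549 genes. Under 1 CPM, the range of Runx3, 25.8% of 3071 genes lay below all pools and 17.6% lay under 25% of the pooled mean.

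**Figure D3:**
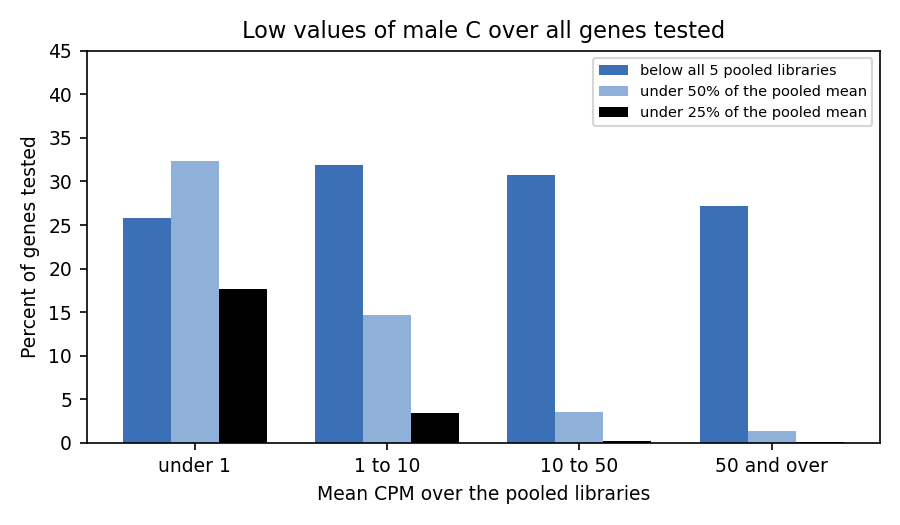
Percent of all genes tested for which male C lay below all 5 pools, under 50% or under 25% of the pooled mean (bars), by the gene's mean CPM over the pools. Lying below all pools was about equally common at each level (25.8 to 31.9%), whereas values under 25% became rare above 10 CPM (0.245% or less).

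Scaling bears on the share over all genes. By library totals, genes outside the range of the pools were lower in male C in 63.5% of cases, and by TMM, RLE and upper-quartile factors in 51.4, 49.2 and 52.3%. The median log2 ratio of all genes, male C over the pools, was -0.15 by library totals and -0.06 by TMM factors. Under each of the 3 factors 8 members lay below all pools, as by library totals.

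Sex is a comparison that did not use male C and is independent of the choice of members. Between the 3 female and the 2 male pools 0 of the 10 members were called by edgeR's quasi-likelihood test, against 0.0324% of 15451 genes (5 genes). The called genes were Ddx3y, Eif2s3y, Uty and Kdm5d of the Y chromosome, higher in males, and Xist, the RNA that silences an X chromosome, higher in females. All 10 members had a Benjamini-Hochberg adjusted edgeR p of 0.99998, and the smallest unadjusted edgeR p among them was 0.275. DESeq2 and limma-voom each called 5 genes, and 153 genes had an unadjusted p under 0.05 in edgeR.

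The log2 ratio of female to male pools was positive for 4 members and negative for 6, with a median of -0.16. It ranged from -0.67 (standard error 0.57) for Car3, with 11.3 ± 5.32 CPM in females (SD, n = 3) and 17.5 ± 14.2 CPM in males (SD, n = 2), to 0.13 (standard error 0.20) for Etv1. Chodl stood at 23.9 ± 16.2 CPM in female (n = 3) and 22.7 ± 15.0 CPM in male pools (n = 2), a log2 ratio of 0.04 with a standard error of 0.59. For Calb1 the ratio was -0.10 with a standard error of 0.23, and for Shox2 -0.25 with a standard error of 0.24. The standard errors of Chodl and Car3 are wide because both varied between libraries of the same sex. A p above the threshold does not show that the sexes were alike. The p-values measure only the spread between these libraries, which are pools of different embryos. The median coefficient of variation of the members over the 5 pools was 20.6%, against 20.9% for all genes tested.

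Genes that were not members were compared between male C and the pools with the same model, in which the lone library is assumed to vary like the pools. Over 16439 genes edgeR called 0 (0%), with 1945 at an unadjusted p under 0.05 and a smallest adjusted p of 0.139. DESeq2 called 206, of which 129 were lower and 77 higher in male C, and limma-voom called 0. A fit against the 2 male pools only takes its spread from 2 libraries, so its calls are not reported.

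A list of 30 other genes of large-diameter neurons, chosen with earlier results of these data known, was compared first. Of its 29 tested members 17 lay below all 5 pools, where 29.3% of all genes did by library totals and 23.2% by TMM factors (17 of the list by these too), and 1 lay above (Ldhb). EdgeR called 0, with 8 lower and 0 higher at an unadjusted p under 0.05. Because the list and the genes named from it were picked with these data in view, their values are a description. The median log2 ratio of the list was -0.60, against -0.06 for all genes tested, and it was the same with Nxph1, a tested gene at 0 reads in male C, set at the limit that 0 reads allow. The list summed to 2363 CPM in male C, against 3067 to 4394 CPM in the pools.

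Kcna1, which encodes a potassium channel beside the nodes of myelinated axons, had the smallest p in the list. It stood at 30.3, 44.2 and 36.4 CPM in female A, B and C, 44.6 and 44.2 CPM in male A and B, and 8.03 CPM in male C, a log2 ratio of -2.23 (standard error 0.31; edgeR adjusted p = 0.146, DESeq2 adjusted p = 8.66e-09). Against the male pools only its log2 ratio was -2.39. The neurofilament gene Nefm gave 307.3 to 666.3 CPM in the pools and 177.5 CPM in male C. Its log2 ratio was -1.46 (standard error 0.38).

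The sodium channel genes Scn1a and Scn8a, which serve fast firing, also lay below all pools. Scn1a stood at 27.1 to 37.2 CPM in the pools and 12.0 CPM in male C. For Scn8a the values were 31.8 to 40.1 CPM in the pools and 17.5 CPM in male C. The secreted protein gene Fam19a1 stood at 8.96 to 19.0 CPM in the pools and 4.397 CPM in male C. Log2 ratios of male C over the pools were -1.29 for Scn1a, -0.93 for Scn8a and -1.64 for Fam19a1. EdgeR called none of the 3 against the 5 pools, as it called no gene there, Kcna1 and Nefm included.

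The rest of the list was mixed. Nefl, the light neurofilament gene, was the list's highest by length at a mean of 690.3 RPKM. It stood at 2046 to 3095 CPM in the pools and 1548 CPM in male C, a log2 ratio of -0.60 (standard error 0.25). Nefh, the heavy neurofilament gene, stood at 71.2 to 123.3 CPM and 66.4 CPM. The TrkC gene Ntrk3 gave 5.81 to 11.2 CPM in the pools and 3.95 CPM in male C. The TrkB gene Ntrk2 lay within the pools, at 24.9 to 42.4 CPM and 32.0 CPM in male C, as did Fxyd7, a regulator of the sodium pump, at 181.8 to 306.1 and 202.4 CPM. Kcnc1, a fast potassium channel gene, and Spp1, which encodes osteopontin and marks large neurons in the adult, lay within the pools too.

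**Figure D4:**
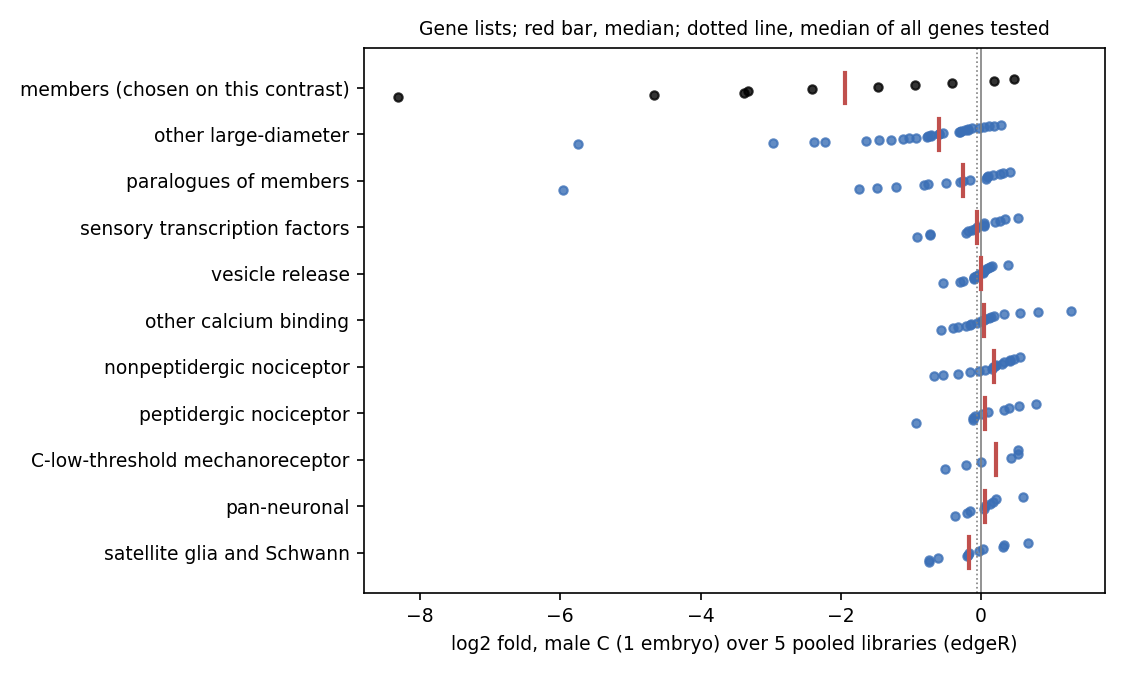
Fitted log2 ratio of male C over the 5 pools for single genes (points) of each gene list, with the list's median (red bar) and the median of all genes tested (dotted line, -0.06). The 10 members were chosen on this contrast and lie from -8.32 to 0.46; the other large-diameter genes have a median of -0.60, and those of the nociceptor lists lie between 0.06 and 0.18.

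Close relatives of the members, from a fixed list, were read in the same way. Of 17 tested paralogues 6 lay below all pools and 1 above, near the 29.3% of all genes below and under the 16.8% above, with a median log2 ratio of -0.26. EdgeR called 0 of them. Layn, the layilin gene related to Chodl, stood at 2.21 to 4.37 CPM in the pools and 0.956 CPM in male C. Car2 stood at 4.31 to 6.93 CPM and 2.29 CPM, while Car8, the most abundant carbonic anhydrase relative, gave 95.7 to 119.3 CPM in the pools and 125.5 CPM in male C. Etv5 and Etv4, the close relatives of Etv1, lay at 54.3 to 71.2 and 4.81 to 15.3 CPM in the pools, against 48.6 and 3.31 CPM in male C, both below the pools. Cadps, the paralogue of Cadps2, stood at 149.3 to 224.9 CPM in the pools and 146.8 CPM in male C. Apart from the 6 below and the 1 above, the tested paralogues lay within the pools. Both relatives of Runx3 did so: Runx1, at 73.29 to 115.9 CPM in the pools and 78.95 CPM in male C, and Runx2. So did Car10, at 51.94 to 59.15 CPM in the pools and 54.61 CPM in male C.

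Genes that share a role with the members had list medians between -0.11 and 0.04, against -0.06 for all genes. Of 17 other calcium-binding genes 6 lay below and 4 above the pools, close to the shares of all genes (29.3% and 16.8%), with a median log2 ratio of 0.04, and S100a6, a small calcium-binding protein gene, lay within the pools at 696.2 CPM against 662.9 to 811.1 CPM. In the list of sensory transcription factors 4 of 15 tested lay below and 2 above, with a median of -0.06. Isl1 and Klf7 lay within the pools, and Pou4f1, the pan-sensory POU factor, lay above them at 1059 CPM against 858.0 to 902.1 CPM. Vesicle release genes had 4 of 16 below and 0 above, with a median of 0.00. Receptors and ligands of the neurotrophin and glial cell line-derived factor families had 3 of 11 below and 2 above, with a median of -0.11. The p75 receptor gene Ngfr stood at 54.2 CPM in male C and varied widely over the pools, at 71.7 to 267.8 CPM. The lowest pool, female A, was the nearest to male C. Its log2 ratio was -1.64 (standard error 0.64).

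The sort genes were read in male C too, but without unsorted or EGFP-negative cells their levels cannot check its label. Scn10a stood at 813.0 CPM in male C and 627.2 to 874.5 CPM in the pools, and Ret at 211.8 CPM and 174.8 to 239.0 CPM. Nociceptor lists had medians above the -0.06 of all genes. The median was 0.18 for 16 tested nonpeptidergic genes (3 below and 3 above the pools). For 10 peptidergic genes it was 0.06 (2 below and 3 above). A separate list of 6 genes of C-low-threshold mechanoreceptors had a median of 0.21 (2 below and 3 above). Of all genes tested 29.3% lay below the pools and 16.8% above them, by library totals. P2rx3, an ATP-gated channel gene, stood at 450.8 CPM in male C against 298.2 to 357.8 CPM in the pools. Calca, which encodes calcitonin gene-related peptide, lay within the pools at 1383 CPM against 1076 to 1794 CPM. Pan-neuronal genes had a median of 0.06 (2 of 9 below, 2 above). In the peptidergic list Trpv1 stood at 181.9 CPM in male C against 96.5 to 126.7 CPM in the pools, a log2 ratio of 0.78.

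Markers of other cells were read beside the members, and their part in the members' values was not tested. Satellite glia and Schwann cell genes summed to 2119 CPM in male C, within the pools at 1827 to 2356 CPM. Skeletal muscle genes, the known site of Car3, summed to 20.6 CPM in male C and 15.4 to 19.5 CPM in the pools. In male C 3 of the 12 muscle genes had 0 reads. Adipocyte genes summed to 2.80 CPM (1.37 to 3.54 CPM in the pools), and 5 of the 7 had 0 reads in male C.

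Spinal cord genes summed to 3.82 CPM in male C, against 1.19 to 3.29 CPM in the pools, and 12 of 15 had 0 reads in male C. Cartilage and bone genes summed to 5.54 CPM against 7.78 to 12.9 CPM, and endothelial genes to 4.08 CPM against 6.15 to 8.61 CPM. Fibroblast and meningeal genes summed to 427.9 CPM against 438.1 to 739.7 CPM, and immune genes to 2.55 CPM against 1.79 to 2.40 CPM. Erythroid genes summed to 32.9 CPM in male C and 40.6 to 1000 CPM in the pools, and immediate early genes, which respond to handling, to 648.4 CPM and 146.4 to 1219 CPM. Of the 6 erythroid genes 5 lay below all pools, where 29.3% of all genes tested did so, and the list's median log2 ratio was -3.02. Male A, with the 1000 CPM, weighs on that ratio. Female A, at 40.6 CPM in sum, was close to male C at 32.9 CPM. EdgeR called 0 genes in each of these lists against the 5 pools. The 2 male pools themselves differed widely in some of these genes. The haemoglobin gene Hbb-bt stood at 184.4 CPM in male A, 26.6 CPM in male B and 4.33 CPM in male C. The immediate early gene Atf3 stood at 3.71 and 61.7 CPM in male A and B, with male C between them at 7.77 CPM. The haemoglobin genes have near-identical copies, between which counting could split reads.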

How the data were processed

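Bulk RNA of 6 libraries was analysed. Per the labels' protocols, 10 ng of RNA was amplified with an ultra-low-input kit before 12 PCR cycles of library preparation. The authors deposited per gene a whole-number read count, a CPM value (the count scaled to 1000000 reads of the library total) and an RPKM value (CPM divided by the gene length in kilobases); both relations were checked for every gene. Counting used featureCounts 1.4.5 of Subread and the build GRCm38.p2, per the submitters' processing notes. Not given in the sources used here are the aligner, the release of the annotation, the strand setting and the handling of multi-mapping reads. Symbols were matched from GENCODE M21 for 40254 of 41388 identifiers (97.26%).

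Levels and their SD are CPM. Ratios have 95% exact intervals from the read counts. These treat reads as independent and leave out the spread between libraries. Amplified reads that carry no molecular identifiers are not independent, so the intervals can be too narrow. A count of 0 allows up to 3 counts (0.191 CPM in male C). Tests used edgeR 4.0.16 (quasi-likelihood, TMM factors, filterByExpr with a minimum count of 10) in R 4.3.3 with Benjamini-Hochberg adjustment at 0.05, two-sided. DESeq2 1.42.0 and limma-voom (limma 3.58.1) were alternatives, with other factors, filters, sex as a covariate, the male pools only, the letter as a block and each pool left out. Scaling and library alternatives for the counts below all pools in other lists and over all genes were added after the data were examined. The edgeR step was tested on simulated data.

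The members and gene lists were chosen with earlier results of these data known. By the rule for named genes the text names all members, genes called between the sexes, and from the 3 highest members by RPKM of each list; edgeR called no gene between male C and the pools. The remaining named genes were picked with their values in view.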

Additional observations from a re-analysis of the deposited data

Results flagged for a closer look

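Erythroid genes summed to 1000 CPM in male A, against 191.5 CPM in the next highest of the 5 pools. The gap was 0.843 of the whole range of the pools, above the critical value of 0.71 for 5 samples. It was 1 of 31 values looked at in this way, and chance marks about 1 in 20 groups.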

How the results depend on the processing

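The log2 ratio of each member, male C over the pools, moved by less than 1 SD of the pools in each of the 100 combinations of 10 members and 10 alternatives, and none changed sign. It lay between -8.69 and -7.96 for Chodl, -5.10 and -4.11 for Car3, and 0.03 and 0.20 for Etv1. Of the other large-diameter genes 16 to 17 lay below all pools under the other scaling factors; settings that leave out pools can only raise this count, and raised it to at most 22.

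Between male C and the pools, edgeR called 0 genes as reported, 5 with no filter and 59 against the male pools only, and DESeq2 called 206. Of the other large-diameter genes, 0 were called lower as reported, 1 with no filter, 2 against the male pools only and 5 by DESeq2. Leaving out each pool in turn gave 0 calls. Between the sexes edgeR called 5 genes as reported, 13 with no filter and 4 to 5 with each pool left out. With the letter as a replicate block it called 45, with 0 of the other large-diameter genes. The letters share only a name: residuals of male and female libraries of the same letter correlated at 0.48 (A), -0.45 (B) and -0.12 (C), and 2 of 6 libraries correlated best with their own letter. The cause of these changes was not tested.

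Chodl and Runx3 rest on 1 read each in male C, so their ratios are limited by depth.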
